A study of Homo sapiens with 6 samples.

Results

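The genes described here are 34 genes known to be activated by the EWS/FLI1 fusion protein or typical of Ewing sarcoma, listed by name. The rule for the list uses no signal from these arrays, but the genes were proposed with earlier results of these data known, so their share of calls is a description. An array probe was assigned to a gene through its transcript accession, and where a gene had several probes the one with the highest mean log2 signal over the 6 arrays was taken. Of the 34 genes, 32 had such a probe, among the 20503 genes named on the array. No probe was matched to CALCB or UPP1 in this way, and these genes were not analysed here. All 32 probes were well above background on all 6 arrays, so none of them entered the test through the signal of 1 group alone.

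A673 is a cell line derived from an Ewing sarcoma. RNA from 3 separate experiments with A673/TR/empty cells, which carry the empty vector, was compared with RNA from 3 experiments with A673/TR/LOX-PP cells, which carry a cDNA for the propeptide of lysyl oxidase (LOX-PP). Both lines share the tetracycline repressor (TR), which makes the vector inducible by doxycycline. The labels give doxycycline at 1 µM for 72 h for all samples, whereas the methods name the induction clearly for A673/TR/LOX-PP only, so the treatment of the control cells is not settled. The lines were made with lentiviral vectors, stable clones were selected, and the sources used here do not give which clone or pool was put on the arrays. An effect of LOX-PP and a difference between separately selected cells therefore cannot be told apart. The groups are called control arrays and LOX-PP arrays below, after their labels.

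Signal is given as the log2 value over the 75th percentile of the array, and a change as LOX-PP minus control relative to the median change of all tested probes, which was 0.13. The p-values test the difference before this median is taken off, and the intervals are shifted by it. Replicate 1 of the LOX-PP arrays was hybridised on slide 2 and the other 5 arrays on slide 1. LOX, the gene from which the propeptide cDNA was taken, gave no higher signal in A673/TR/LOX-PP. Its probe read -0.09, 0.36 and 0.11 with the empty vector and -0.12, -0.68 and -1.29 with LOX-PP, a relative change of -0.95 that did not pass the test (adjusted p = 0.217, limma). The files do not say whether that probe lies within the cDNA, and every direction below rests on the labels. In separate assays, the paper reports LOX-PP mRNA induced by doxycycline in A673/TR/LOX-PP cells and the propeptide in their medium. The spread measured is that between 3 arrays per group, and this number limits the precision.

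Ewing sarcoma is driven by a translocation that joins EWSR1 to the ETS family gene FLI1. The fusion protein keeps the DNA-binding domain of FLI1, which recognises the short core GGAA, and it can also bind runs of repeated GGAA, where it opens chromatin and switches on genes that the cell of origin does not use. The genes it activates serve as markers of the tumour (CD99, NR0B1, STEAP1, LIPI, PRKCB) and several of them are needed for growth of Ewing sarcoma cells.

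The letters of the promoters are shown for 4 of the genes because GGAA is the core that the fusion protein reads. NR0B1 is a textbook target, CCK was lower on the LOX-PP arrays, KDSR was higher, and LOXHD1 was higher and holds a tandem of the core. Each line gives the 250 bases before a transcription start from RefSeq (GRCh38.p14), read 5′ to 3′ on the strand of the gene, with GGAA or its complement TTCC in capitals. CCK has 2 starts in the table and LOXHD1 has 4, of which 1 each is shown. The CCK window shown has 1 match to the core, whereas the other CCK window has 5. Of the 4 LOXHD1 windows, only the 1 shown holds the tandem. The array probes were not linked to a start.
NR0B1, chrX:30309391-30309640, minus strand: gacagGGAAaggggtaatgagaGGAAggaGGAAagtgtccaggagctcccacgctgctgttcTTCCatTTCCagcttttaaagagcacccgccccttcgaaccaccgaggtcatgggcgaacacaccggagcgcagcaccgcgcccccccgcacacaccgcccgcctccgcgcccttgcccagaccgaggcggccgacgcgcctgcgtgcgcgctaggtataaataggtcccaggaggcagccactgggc
CCK, chr3:42266186-42266435, minus strand: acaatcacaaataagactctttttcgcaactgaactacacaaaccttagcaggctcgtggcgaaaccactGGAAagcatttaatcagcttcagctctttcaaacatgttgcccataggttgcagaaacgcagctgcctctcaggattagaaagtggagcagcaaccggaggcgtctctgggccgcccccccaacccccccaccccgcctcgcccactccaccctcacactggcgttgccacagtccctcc
KDSR, chr18:63367207-63367456, minus strand: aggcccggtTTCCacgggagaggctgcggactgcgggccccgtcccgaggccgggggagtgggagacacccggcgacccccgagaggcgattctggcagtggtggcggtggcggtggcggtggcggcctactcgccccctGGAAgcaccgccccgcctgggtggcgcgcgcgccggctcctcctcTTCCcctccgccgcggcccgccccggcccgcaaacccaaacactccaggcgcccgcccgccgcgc
LOXHD1, chr18:46657221-46657470, minus strand: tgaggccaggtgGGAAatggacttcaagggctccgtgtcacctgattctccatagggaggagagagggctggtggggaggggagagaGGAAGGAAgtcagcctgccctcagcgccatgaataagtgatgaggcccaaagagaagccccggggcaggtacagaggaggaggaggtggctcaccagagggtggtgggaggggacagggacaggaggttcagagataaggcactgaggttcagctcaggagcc

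The core is short and common, and its presence did not set these genes apart. The promoter table used here holds 26 of the 32 genes, with 40 starts in all, and MYC, SLCO5A1, VRK1, PPP1R1A, KCNAB3 and MAPT were not matched in it. GGAA on either strand was found before 37 of the 40 starts (92.5%), compared with 92.7% of 34961 promoters of all genes, with a median of 3 matches in both sets. The tandem GGAAGGAA was found before 3 starts (7.5%, compared with 3.06% of all promoters), 1 of LOXHD1 and 2 overlapping starts of CAV1. CAV1 did not pass the test (change 0.10, adjusted p = 0.621, limma), and a link between the tandem and the changes was not tested. The longer ETS site CCGGAAGT was found before 0 of the 40 starts and in 3.43% of all promoters. Matches to CCGGAAGT and GGAAGGAA are counted among those to GGAA, both strands were searched, and the windows are too short to reach the distant GGAA repeats through which genes such as NR0B1 are known to be controlled.

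Of the 32 genes, 3 rose (LOXHD1, MAPT and KDSR), 2 fell (CCK and TERT) and 27 did not pass the test at an adjusted p under 0.05 (limma, adjusted over all 32647 tested probes). The 5 called genes are 15.6% of the list. Over all tested probes 5.66% were called, 3.31% as higher and 2.36% as lower, and among 14158 named genes that were likewise well above background on all arrays 5.93% were called, 2.85% as higher and 3.07% as lower. With so few genes this share was not tested. The median change of the list was -0.06, compared with -0.13 for those 14158 genes, and 14 of the 32 genes lay above the median of all probes, which 50% of the tested probes and 40.4% of the 14158 genes did. In size, the change was under 0.5 for 21 of the 32 genes and for 63.2% of the 14158. Only LOXHD1 kept its call without any single array, and the count was 1 without replicate 1 or without replicate 2 of the control arrays, 3 without their replicate 3 or without LOX-PP replicate 3, and 4 or 5 without the other arrays.

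**Figure D1:**
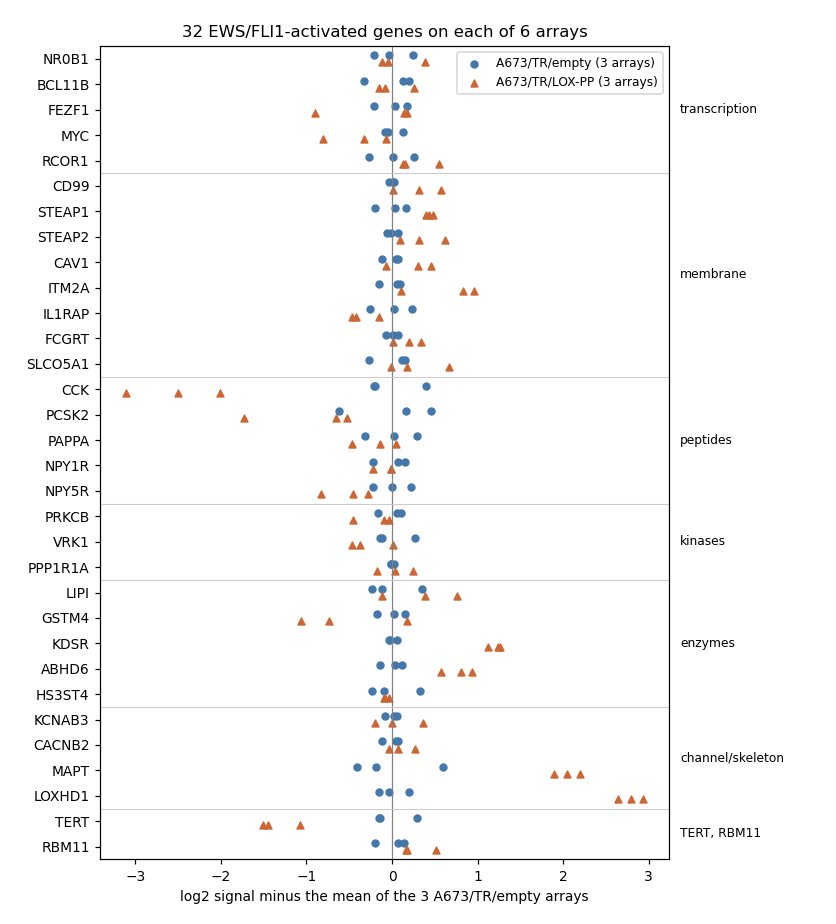
Log2 signal of each of the 32 genes on each array, minus the mean of the 3 control arrays of that gene (x axis, log2 units), with circles for A673/TR/empty and triangles for A673/TR/LOX-PP. The triangles of CCK and TERT lie left of all circles and those of KDSR, MAPT and LOXHD1 lie right of them, whereas most other genes overlap or nearly so.

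The groups did not overlap for 11 of the 32 genes, 8 with higher and 3 with lower LOX-PP values. For comparison, the groups did not overlap for 29.5% of all tested probes (16.1% higher and 13.4% lower) and for 34.2% of the 14158 named genes (14.6% higher and 19.6% lower). Among the genes that were not called, the widest difference was that of PCSK2, and 19 of the 27 had a 95% interval that stayed within 1 log2 unit of the median of all probes. The SD within a group had a median of 0.23 over the genes and ran from 0.022 to 0.66. Most of the genes are bright: 20 of the 32 fell in the upper 2 of 10 groups of genes ordered by signal, for which the median change of all genes was -0.25 and -0.02.

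**Figure D2:**
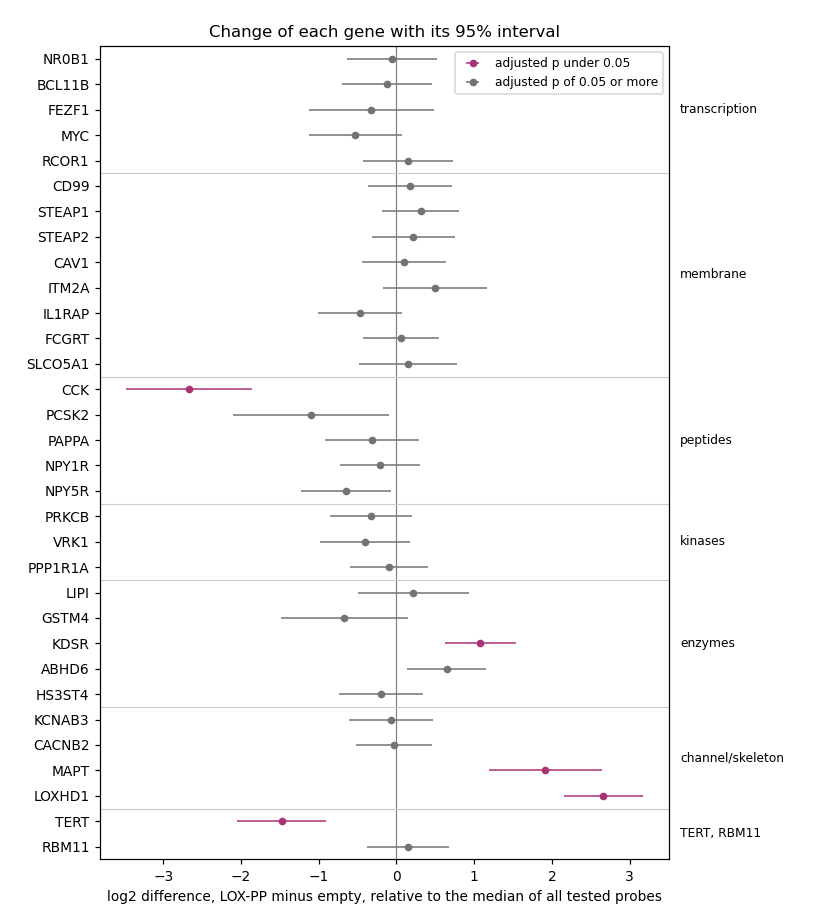
Change of each gene on the LOX-PP arrays relative to the median of all tested probes (x axis, log2 units), with its 95% interval from limma (3 arrays per group). The intervals of CCK, TERT, KDSR, MAPT and LOXHD1 lie clear of 0, those of PCSK2, NPY5R and ABHD6 exclude 0 without a call, and the others include 0. Before adjustment p was 0.056 for PCSK2 and 0.071 for NPY5R (limma), since the test does not take off the median by which the intervals are shifted. For ABHD6 p was 0.0086 before adjustment and 0.0921 after it (limma).

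Among the 5 regulators of transcription and chromatin none was called. NR0B1 encodes DAX1, an orphan nuclear receptor that acts with EWS/FLI1 to drive transformation. Its signal was 5.26, 5.45 and 5.73 with the empty vector and 5.36, 5.44 and 5.86 with LOX-PP. The groups covered the same range, and the change was -0.05 with a 95% interval from -0.64 to 0.53 (adjusted p = 0.897, limma). MYC, the growth-promoting transcription factor, read 4.96, 5.13 and 4.92 with the empty vector and 4.20, 4.68 and 4.93 with LOX-PP. Its highest LOX-PP array was within the control range, and the change of -0.53 was not called (adjusted p = 0.415, limma). MYC lies on chromosome 8, where the 558 named and tested genes had a median change of -0.42 and 10.6% of them were called as lower. SLCO5A1, the other gene of the list on this chromosome, had a change of 0.15, and what the chromosome adds to either value was not tested. The corepressor subunit RCOR1 (0.15), the zinc finger factor BCL11B (-0.12) and the zinc finger factor FEZF1 (-0.32) had changes within their spread. In FEZF1 the LOX-PP array of slide 2 stood apart at 0.56, compared with 1.61 and 1.64 on the other LOX-PP arrays and 1.25 to 1.64 on the control arrays. Over the list, this array lay farthest from the LOX-PP median for 7 genes, compared with 11 for replicate 2 and 14 for replicate 3.

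The 8 genes for proteins of the cell surface and membranes gave no call either, with changes from -0.47 (IL1RAP) to 0.50 (ITM2A). CD99, the glycoprotein used in the diagnosis of Ewing sarcoma, read 5.82, 5.87 and 5.86 with the empty vector and 6.16, 5.86 and 6.42 with LOX-PP. Its control arrays were nearly equal while the LOX-PP arrays spread upwards from the same level, and the change was 0.17 (adjusted p = 0.495, limma). STEAP1 and STEAP2 encode related membrane metalloreductases and are direct neighbours on chromosome 7. STEAP1 read 4.45, 4.82 and 4.69 with the empty vector and 5.08, 5.04 and 5.13 with LOX-PP, so the groups did not overlap, but the change of 0.31 was not called (adjusted p = 0.279, limma). A second STEAP1 probe with the same accession gave -0.06, with overlapping groups. STEAP2 read 2.91, 3.05 and 2.97 against 3.07, 3.60 and 3.30, again without overlap and without a call, with a change of 0.22 (adjusted p = 0.428, limma). CAV1, which encodes the scaffold protein of caveolae, read 5.90, 6.09 and 6.06 with the empty vector and 6.31, 5.94 and 6.46 with LOX-PP. These values overlapped, with a change of 0.10 (adjusted p = 0.621, limma), and a second CAV1 probe gave 0.08. FCGRT, which encodes the neonatal Fc receptor chain, gave 0.06, and SLCO5A1, a member of the organic anion transporter family, read from 1.63 to 2.06 on the control arrays and from 1.90 to 2.58 on the LOX-PP arrays. The signs of CD99, CAV1 and FCGRT turned under quantile normalization.

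CCK fell, the largest decrease of the list. It encodes cholecystokinin, a peptide hormone that Ewing sarcoma cells secrete and use as a growth signal. Its signal was 2.60, 3.21 and 2.61 with the empty vector and 0.31, 0.80 and -0.30 with LOX-PP. The lowest control array lay well above the highest LOX-PP array, and the change was -2.67 with a 95% interval from -3.48 to -1.86, that is 6.35-fold lower (adjusted p = 0.0100, limma). Over 17 alternatives the adjusted p ran from 0.00478 to 0.0708, and the call was lost without replicate 1 or replicate 2 of the control arrays and in the t-test named in the methods. The size changed little, from -2.85 to -2.38.

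The other genes of this group, which deal with the release and reception of peptides, had values below the median of all probes but none was called. PCSK2 encodes prohormone convertase 2, a protease that cuts peptide precursors in secretory granules. Its values were uneven, with 1.99, 2.29 and 1.21 with the empty vector and 1.17, 1.31 and 0.10 with LOX-PP, and the change of -1.10 was not called (adjusted p = 0.247, limma; 95% interval from -2.10 to -0.10). NPY1R and NPY5R, which encode receptors for neuropeptide Y, are direct neighbours on chromosome 4. NPY1R read 2.35, 2.65 and 2.74 with the empty vector and 2.35, 2.57 and 2.57 with LOX-PP, which overlap (change -0.21, adjusted p = 0.859, limma). NPY5R read 0.61, 0.83 and 1.05 with the empty vector and 0.0042, 0.55 and 0.37 with LOX-PP, without overlap (change -0.65, adjusted p = 0.276, limma). PAPPA, a secreted metalloprotease that releases insulin-like growth factors from a binding protein, gave -0.32.

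PRKCB, VRK1 and PPP1R1A, which act in phosphorylation, were not called. PRKCB encodes protein kinase C beta, and its signal was 4.27, 4.23 and 4.0 with the empty vector and 3.71, 4.07 and 4.13 with LOX-PP. The groups overlapped, with a change of -0.32 (adjusted p = 0.660, limma), and its second probe gave -0.34. PPP1R1A, an inhibitor of protein phosphatase 1, read 3.03, 2.99 and 3.00 against 2.83, 3.25 and 3.05. Its change was -0.09 with a 95% interval from -0.59 to 0.41, and it turned positive under quantile normalization (0.18). VRK1, a nuclear kinase, gave -0.41 (adjusted p = 0.558, limma).

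Of the 5 metabolic enzymes measured, KDSR rose. It encodes 3-ketodihydrosphingosine reductase, an early enzyme of sphingolipid synthesis. Its brightest probe read 3.52, 3.61 and 3.51 with the empty vector and 4.81, 4.78 and 4.67 with LOX-PP. Both groups were tight and far apart, with a change of 1.08 and a 95% interval from 0.62 to 1.54, that is 2.11-fold higher (adjusted p = 0.0180, limma). A second KDSR probe with the same accession disagreed, with a mean of 2.05 on the control arrays and 2.27 on the LOX-PP arrays and a change of 0.09 (adjusted p = 0.661, limma). When all probes of a gene were averaged, KDSR was not called and its change was 0.58. Its call was likewise lost when any control array or LOX-PP replicate 2 was left out, when dim probes were kept and under a replicate block, over a range of adjusted p from 0.0100 to 0.130.

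ABHD6, a lipase that hydrolyses monoacylglycerols, was nearest to a call among the others. It read 4.99, 5.07 and 4.81 with the empty vector and 5.89, 5.53 and 5.77 with LOX-PP, a change of 0.65 that did not pass (adjusted p = 0.0921, limma). None of the 17 alternatives called it. LIPI, a membrane-associated phospholipase and cancer-testis antigen, read 3.85, 4.43 and 3.96 against 4.46, 4.84 and 3.96, which overlap (change 0.22, adjusted p = 0.563, limma). GSTM4 encodes a glutathione transferase of the mu class, a family of close sequence in which probes may share signal. It read 3.39, 3.07 and 3.26 with the empty vector and 2.18, 2.50 and 3.41 with LOX-PP, so that 1 LOX-PP array lay above all control arrays and the change of -0.67 was not called (adjusted p = 0.418, limma). HS3ST4, a sulfotransferase of heparan sulfate, gave -0.20.

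LOXHD1 rose more than any other gene of the list, and this call was made under all 17 alternatives. Its protein is known from the stereocilia of hair cells in the inner ear, and in spite of its symbol it is no member of the lysyl oxidase family, since the name refers to lipoxygenase homology domains. The probe read -3.54, -3.89 and -3.77 with the empty vector and -0.80, -1.09 and -0.94 with LOX-PP. All 6 arrays were well above background, the spread within both groups was small, and the change was 2.66 with a 95% interval from 2.15 to 3.17, that is 6.33-fold higher (adjusted p = 0.00150, limma). Over the alternatives the change ran from 2.15 to 2.81 and the adjusted p from 0.000627 to 0.0169.

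MAPT rose as well. It encodes tau, the microtubule-associated protein of neurons. Its brightest probe read 2.63, 2.84 and 3.63 with the empty vector and 5.07, 4.92 and 5.23 with LOX-PP. Control replicate 3 was the nearest to the LOX-PP arrays but still well below them, and the change was 1.92 with a 95% interval from 1.19 to 2.64, that is 3.77-fold higher (adjusted p = 0.0145, limma). A second MAPT probe, with another transcript accession, was also called, with a change of 1.45 (adjusted p = 0.0347, limma). The call of the brightest probe was lost without replicate 1 or replicate 2 of the control arrays, without LOX-PP replicate 3, when dim probes were kept and in the t-test named in the methods, with adjusted p from 0.00735 to 0.0836. The channel subunits KCNAB3 (-0.07) and CACNB2 (-0.03) had values close to the median of all probes.

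TERT fell. It encodes the catalytic subunit of telomerase, which extends chromosome ends. Its signal was 1.03, 1.48 and 1.04 with the empty vector and -0.26, 0.10 and -0.33 with LOX-PP. The groups were clearly apart, with a change of -1.47 and a 95% interval from -2.05 to -0.90, that is 2.78-fold lower (adjusted p = 0.0264, limma). The call was lost when any control array or LOX-PP replicate 3 was left out, when dim probes were kept, under a replicate block and in the t-test named in the methods, and the adjusted p ran from 0.0151 to 0.131. The RNA-binding protein RBM11, whose gene lies next to LIPI on chromosome 21, gave 0.15 (adjusted p = 0.518, limma).

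**Figure D3:**
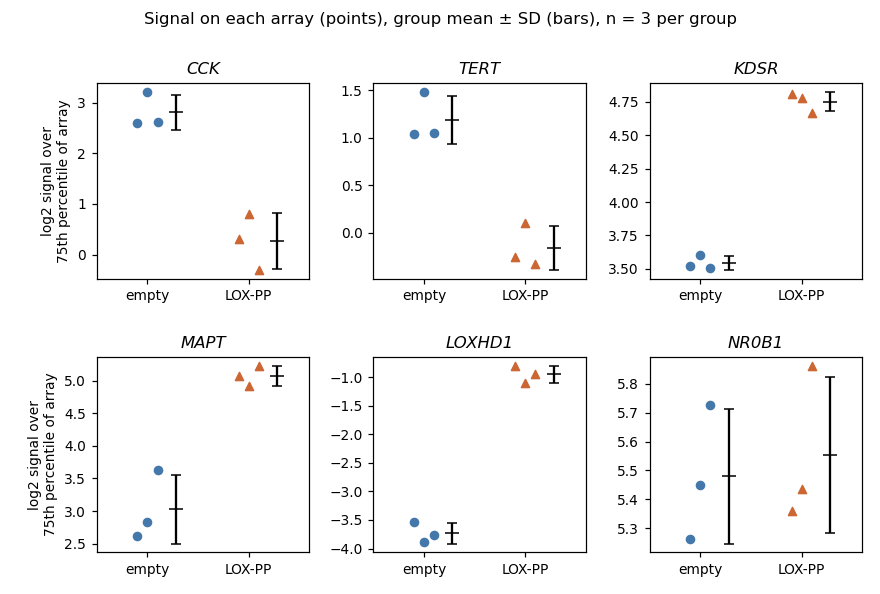
Log2 signal over the 75th percentile of the array (y axis, a separate scale in each panel) of the 5 called genes and of NR0B1, with a point per array and the mean ± SD of 3 arrays beside them. The groups lie apart in the panels of CCK, TERT, KDSR, MAPT and LOXHD1, and cover the same range in that of NR0B1.

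A gene with several probes offers a check within the same arrays. Of the 32 genes 10 had further probes, 11 probes in all, which were all tested. Of these 11, 6 had the same sign as the brightest probe and 1, that of MAPT, was called. The 3 IL1RAP probes gave -0.47, 0.21 and 0.02, and the probes belong to different transcript accessions. The third was dim, with means of -4.69 on the control and -4.54 on the LOX-PP arrays, above background on 2 arrays of each group. BCL11B gave -0.12 with the brightest probe and 0.81 with the other (adjusted p = 0.0959, limma), although both carry the same accession. STEAP2 gave 0.22 and 0.96, the latter under another accession (adjusted p = 0.0864, limma).

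**Figure D4:**
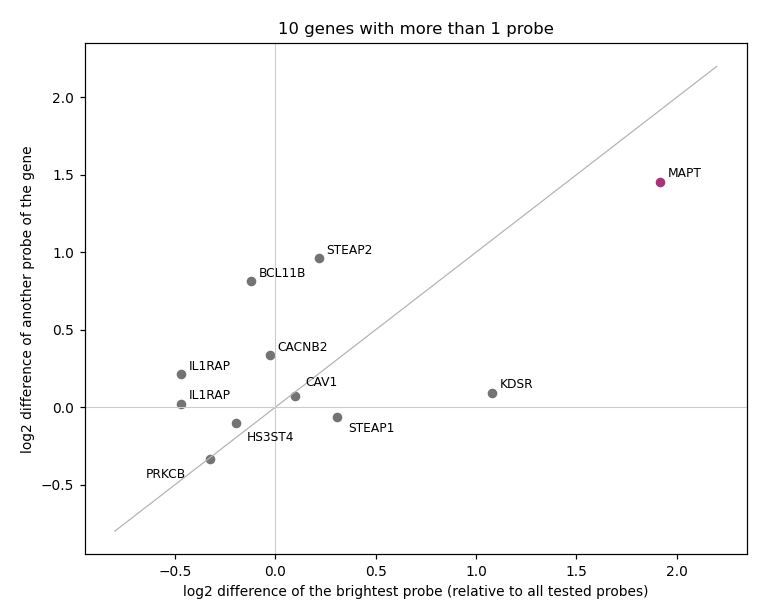
Change of the brightest probe (x axis) and of each further probe of the same gene (y axis), both in log2 units relative to all tested probes, for 10 genes; the diagonal marks equal change. MAPT lies near the diagonal with both probes called, whereas KDSR has 1.08 on the x axis and 0.09 on the y axis.

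The genes of the fusion were measured by probes whose place relative to the breakpoint is not given by the files. By RT-PCR, the paper reports EWS/FLI1 mRNA unaltered by doxycycline in A673/TR/LOX-PP cells, a comparison within that line. The brightest EWSR1 probe read 3.45, 3.44 and 3.23 with the empty vector and 3.20, 2.54 and 2.87 with LOX-PP, without overlap but without a call (change -0.63, adjusted p = 0.287, limma), and its other probes gave -0.04 and 0.06. FLI1 read 3.03, 3.30 and 3.00 against 2.80, 2.80 and 3.08, which overlap (change -0.34, adjusted p = 0.619, limma). Of the 6 genes in a list of EWSR1, FLI1 and ETS genes, 5 were tested and 1 was called, FEV, an ETS factor of serotonergic neurons, which rose. It read -1.42, -1.82 and -1.61 with the empty vector and 1.01, 1.28 and 0.82 with LOX-PP, a change of 2.53 (adjusted p = 0.00218, limma). ERG was not well above background on any array.

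Of a further 17 genes described as activated by EWS/FLI1, 2 fell, 0 rose and 15 were not called, with a median change of 0.06. PTPN13, which encodes a large protein tyrosine phosphatase, was well above background on all control arrays (3.89, 4.01 and 3.63) and on no LOX-PP array. It was at least 998-fold lower there when the floor of each LOX-PP array was the lowest signal of a probe well above background on it, or the PTPN13 signal where that was higher (adjusted p = 0.000443, limma). With 1 common floor for all arrays, the highest of the 6, it was at least 402-fold lower. These bounds hold only for the floors named, which are not strict detection limits. ERG, above background on no array, read -3.76 on LOX-PP replicate 2, above the common floor of -4.81. PLD2, a phospholipase, read 2.80, 3.18 and 2.93 with the empty vector and 1.95, 1.59 and 1.99 with LOX-PP. It fell by 1.26 on the log2 scale (adjusted p = 0.0377, limma), a call that 9 of 17 alternatives made. NKX2-2, a homeobox factor that serves as a marker of Ewing sarcoma, read 1.31, 0.71 and 1.08 against 1.77, 2.01 and 2.27. The groups did not overlap, yet the change of 0.86 was not called (adjusted p = 0.0782, limma), except under quantile normalization (1.11, adjusted p = 0.0496, limma), where the adjusted p over the alternatives ran up to 0.292.

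Of 11 genes described as repressed by EWS/FLI1, 1 rose, 2 fell and 8 were not called, with a median change of -0.23. CDKN1A (p21, an inhibitor of the cell cycle) rose from -3.26, -3.69 and -2.12 to -0.55, -0.38 and -0.28, a change of 2.49 (adjusted p = 0.0164, limma). SPRY1, a feedback inhibitor of receptor tyrosine kinase signalling, read 0.062, -0.25 and -1.08 with the empty vector and -3.09, -2.16 and -2.94 with LOX-PP, a change of -2.44 (adjusted p = 0.0211, limma). DKK1, a secreted Wnt inhibitor, read -1.74, -1.23 and -2.82 with the empty vector and was well above background on no LOX-PP array (adjusted p = 0.0313, limma). It was at least 11.1-fold lower there with the floor of each array and at least 6.78-fold lower with the common floor, with the same limit on these floors. All 3 calls were lost without replicate 1 or replicate 2 of the control arrays, without LOX-PP replicate 3, when dim probes were kept and in the t-test named in the methods, where the count for this list was 0. IGFBP3, a binding protein of insulin-like growth factors, gave 0.95 (adjusted p = 0.0534, limma), and it was called with the common floor and when all 6 arrays had to be above background.

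**Figure D5:**
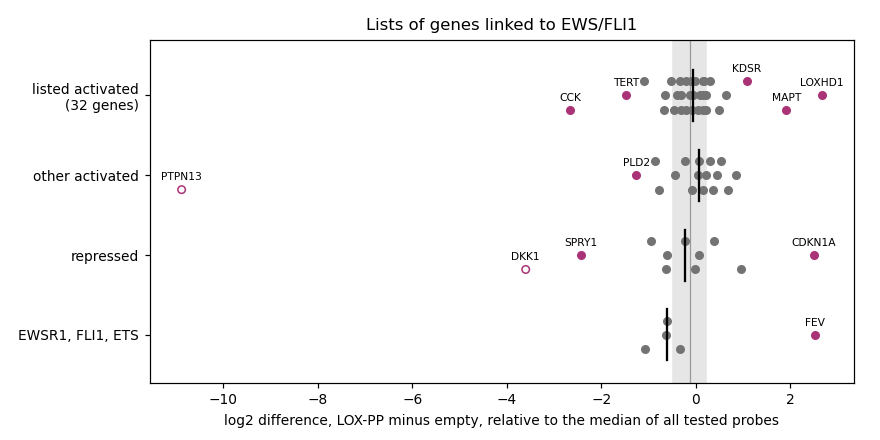
Change of each tested gene (x axis, log2 units relative to all tested probes) in 4 lists linked to EWS/FLI1, with called genes in colour and named, open circles for genes above background on no LOX-PP array and a black line at the median of the list. The grey band is the middle of the distribution (lower to upper quartile) of 14158 named genes, -0.47 to 0.22, and the medians of the 3 longer lists lie within it.

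Markers of other cell types were checked beside these values. All 9 fibroblast markers were above background on at least 1 array. Their summed signal ran from 83.6 to 85.2 times the 75th percentile on the control arrays and from 46.7 to 72.0 on the LOX-PP arrays. Of the 8 tested, 1 rose (FAP, by 3.52) and 2 fell (COL1A2, by 3.04, and LUM, by 2.42, on the log2 scale). These were 37.5% of the 8, compared with 5.66% of all tested probes. FAP was above background on 2 control arrays, and LUM on 2 control arrays and 1 LOX-PP array. The sizes of both therefore rest partly on dim signal. Of 7 epithelial markers 6 were tested and 0 were called, CDH1 was above background on no array, and the summed signal overlapped (58.0 to 59.5 and 45.5 to 68.8). Such sums are of linear signal, so the brightest markers weigh most. In log2 units the control mean was 5.83 for KRT18 and 0.65 for KRT8, the next epithelial marker. Among the fibroblast markers it was highest for COL1A2 and THY1, 5.16 each. The 6 leukocyte markers summed to 0.891 to 1.22 and 1.07 to 1.86, with 1 called (ITGAM, higher by 1.19), and the 5 muscle markers summed to 0.885 to 1.00 and 1.00 to 1.75 with 0 called. The part of these markers in the changes of CCK, TERT, KDSR, MAPT and LOXHD1 was not tested. The Ewing sarcoma markers CD99, NKX2-2, NR0B1, STEAP1, PRKCB, LIPI and CCND1 were well above background on all 6 arrays.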

How the data were processed

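Gene expression in 6 samples was measured with 1-colour Agilent arrays. Spot intensity values from Agilent Feature Extraction (version 10.7, per the labels), corrected for background, were deposited by the authors with quality flags, as were processed log2 values of the same arrays. Starting from the deposited intensity, spots marked as control or outlier were dropped, the log2 signals of replicate spots were averaged, and each array was scaled by its 75th percentile. This gave the authors' log2 values, which are in addition centred per probe, within 0.027 for 99.9% of the values. The 32647 probes that exceeded background clearly on 3 or more of 6 arrays were tested with limma (version 3.58.1, R 4.3.3) at a Benjamini-Hochberg adjusted p under 0.05. The steps were tested on simulated data. Between 56.9% and 74.8% of gene spots were well above background, the negative controls read from 64.4 to 575, and no gene spot was saturated. Gene names (28174 of 50599 probes), chromosomes, neighbours and promoters came from RefSeq, whose assembly is later than that of the array design.

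The members and gene lists were chosen with earlier results of these data known. The rule for array values took called genes, members with groups at least 1 apart without overlap, and a fixed set of typical markers (NR0B1, CCK, STEAP1, STEAP2, PRKCB, LIPI, CD99, PPP1R1A, NPY1R, NPY5R, MYC, CAV1, EWSR1, FLI1, LOX and NKX2-2). FEZF1, SLCO5A1, PCSK2, ABHD6, GSTM4 and IGFBP3 were added after their values were seen. Whether the same replicate number pairs the arrays is not settled. The deviations of the 3 pairs correlated by 0.27, -0.39 and 0.23, but deviations centred within 3 arrays constrain each other and cannot decide this. Alternatives were quantile normalization, the median of bright probes, the authors' processed values, normexp background correction (offset 50, on the median spot signal), a common floor, other filters, slide and replicate blocks, the methods' t-test, averaging the probes of a gene and leaving out each array. The methods name Student's t-test for comparing 2 groups and, for the arrays, to rank genes before a gene set analysis. Here that test was run on each tested probe with Benjamini-Hochberg adjustment, so its calls are not the paper's.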

Additional observations from a re-analysis of the deposited data

How the results depend on the processing

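Of the 5 calls among the 32 genes, 2 remained with no filter on dim probes (CCK and LOXHD1), 3 with a replicate block (CCK, MAPT and LOXHD1) and 2 in the methods' t-test (KDSR and LOXHD1), and leaving out 1 array gave 1 to 5. In the other activated genes 2 calls became 4 with quantile normalization, 1 with no filter, 1 when all 6 arrays had to be above background, 1 with a replicate block, 1 in the t-test and 1 to 2 without an array. The filter on all 6 arrays left PTPN13 untested, and it was called under all 16 alternatives that tested it. In the repressed genes 3 calls became 0 with no filter, 0 in the t-test and 0 to 3 without an array. They became 2 with normexp and 2 with a replicate block, DKK1 being lost in both, and 4 with the common floor. When all 6 arrays had to be above background the count was 3, with IGFBP3 in place of DKK1, which was not tested there. The call of FEV was made under all 17 alternatives. Whether the replicate numbers pair the arrays is not settled. The block for the slide is the same as leaving out LOX-PP replicate 1. With no filter the median taken off every gene rose from 0.13 to 0.30, while the difference of each gene itself is the same, and the median change of the 32 genes moved by this step alone, from -0.06 to -0.24. Over all tested probes the calls were 1849, compared with 516 with no filter, 860 with a replicate block, 566 in the t-test and 407 to 2062 without an array. Quantile normalization moved the share of higher calls from 58.4% to 48.0%, and the median change of all probes from 0.13 to -0.03.

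No called gene changed sign. The sign relative to the median of all probes changed for 13 genes whose change was at most 0.21 in size. Under quantile normalization this concerned BCL11B (0.13), CD99 (-0.097), CAV1 (-0.23), FCGRT (-0.22), NPY1R (0.075), PPP1R1A (0.18), HS3ST4 (0.011) and CACNB2 (0.24). With no filter, where only the median taken off moved, it concerned RCOR1 (-0.026), CD99 (-0.0030), CAV1 (-0.078), FCGRT (-0.12), SLCO5A1 (-0.028) and RBM11 (-0.022). With normexp it concerned CAV1 (-0.0077) and FCGRT (-0.014), with the slide block NR0B1 (0.0073), FCGRT (-0.058) and KCNAB3 (0.019), with the stricter filter, where again only that median moved (to 0.069), NR0B1 (0.0032) and CACNB2 (0.030), and with the mean of all probes BCL11B (0.34) and CACNB2 (0.15). Without 1 array the change ran from -0.21 to 0.081 for NR0B1, -0.35 to 0.041 for BCL11B, -0.050 to 0.34 for RCOR1, -0.015 to 0.33 for CAV1, -0.058 to 0.22 for FCGRT, -0.055 to 0.27 for SLCO5A1, -0.38 to 0.031 for HS3ST4, -0.23 to 0.034 for KCNAB3 and -0.15 to 0.12 for CACNB2.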
